A study of Mus musculus with 8 samples.

Results

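The Hox genes encode homeodomain transcription factors and lie in 4 clusters, Hox A, B, C and D, on different chromosomes of the mouse. The members described here were the protein-coding Hox symbols of a fixed list that had an entry in the deposited expression table, and they numbered 38 of the 55558 Ensembl gene features in that table. They comprised 10 genes of Hox A on chromosome 6, 10 of Hox B on chromosome 11, 9 of Hox C on chromosome 15 and 9 of Hox D on chromosome 2. The series compared the mouse kidney cell lines mK3 and mK4, whose genotype the labels give as wild type and which were cultured without treatment in the same DMEM with fetal bovine serum. The labels name the mK3 cells as metanephric mesenchyme that has not been induced, and the mK4 cells as metanephric mesenchyme that has differentiated towards epithelium. Each line gave 3 RNA-seq libraries and 1 ATAC-seq library, an assay in which a transposase cuts accessible DNA. Each group is a cell line, so a difference between the groups is one between these lines.

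Genes within a Hox cluster are numbered by paralog group, from the 3′ or anterior end (low numbers) to the 5′ or posterior end (high numbers), and genes with the same number in different clusters are copies of a common ancestor. In embryos, low-numbered genes are switched on earlier and more anteriorly than high-numbered ones, a property called collinearity, and polycomb proteins keep the genes that are not in use silent. In the kidney, the genes of paralog group 11 are known for their joint requirement in the metanephric mesenchyme, where their products act with other factors upstream of the growth factor Gdnf. The clusters also hold miRNA genes of the miR-10, miR-196 and miR-615 families, several of which target Hox transcripts.

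Library totals were 137559391 to 152952351 counts, of which genes took 133899125 to 146187601 and mature miRNAs 3191483 to 6755311. Separate cultures are not stated for replicate libraries, and p-values therefore reflect the spread of these libraries alone, possibly a technical one. Levels are CPM, the count scaled to a library of standard size with TMM factors, given as mean ± SD with n = 3 libraries per line, and differences are log2 fold changes of mK4 against mK3 with their standard error (SE). Calls use edgeR's quasi-likelihood test with Benjamini-Hochberg adjustment over 20405 tested genes at 0.05. The summed level of 5 mesenchymal markers ranged over 2650 to 2988 CPM (mK3) and 280.4 to 296.6 CPM (mK4), while that of 6 kidney epithelial markers ranged over 0.640 to 1.20 CPM (mK3) and 1780 to 1858 CPM (mK4). Of the mesenchymal markers, Col1a2, Col3a1, Prrx1 and Pdgfrb were lower in mK4, while Vim was higher (172.4 ± 1.28 against 231.3 ± 10.8 CPM) and made up most of the mK4 sum. Of the defining epithelial markers, Epcam was at 0 in all mK4 libraries and Cdh1 had 59, 0 and 59 counts, so the epithelial level in mK4 came from Pax2, Pax8, Cdh16 and Cdh6. The summed levels of both marker sets differed between the lines, as did many but not all Hox genes. The part of these markers in the Hox results was not tested. Some genes jumped between replicates of a line. Of 12012 genes with over 500 counts in at least 1 mK3 library, 57 (0.475%) were at 0 in another, and in mK4 105 of 12599 (0.833%) were.

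Most tested Hox B genes were higher in mK4 and most Hox C genes were lower, while most Hox A genes did not pass the test. Of the 38 members, 28 were tested, 7 rose, 9 fell and 12 were not called in either direction. Across all genes tested, 20.8% were called higher and 19.5% lower. By cluster, 1 Hox A gene rose and 1 fell among 9 tested, 6 Hox B genes rose among 9 tested, 7 Hox C genes fell among 9 tested, and the only tested Hox D gene fell. The median log2 fold change was 0.02 for Hox A, 1.52 for Hox B and -3.55 for Hox C, against -0.02 over the 28 tested members and 0.02 over all genes. No Hox B gene was called lower and no Hox C gene higher by edgeR, and these counts were also 0 at an unadjusted p under 0.05 and with DESeq2. As bulk libraries were sequenced, fewer cells with a transcript and less transcript per cell cannot be told apart.

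**Figure D1:**
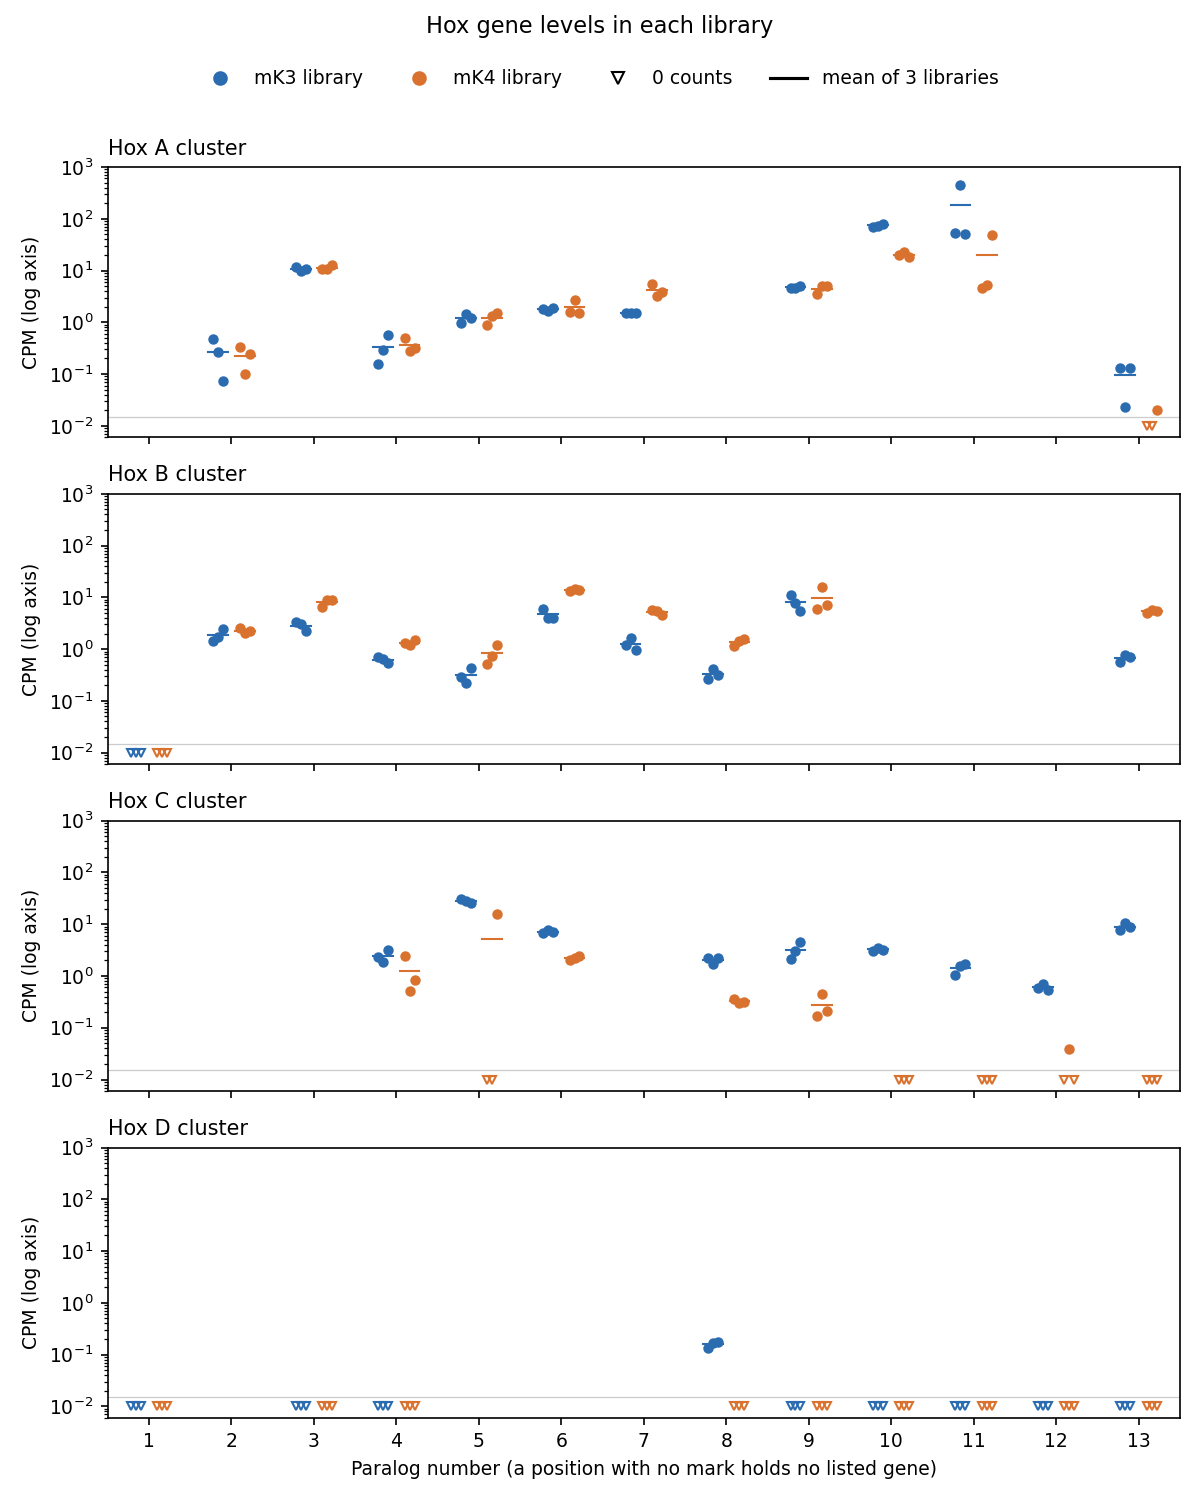
CPM of each listed Hox gene in each library on a log axis, by cluster and paralog number. Points are libraries, short lines are means of 3 libraries, and open triangles below the grey line are libraries with 0 counts. Libraries of mK3 are blue and those of mK4 orange. In mK4, 6 of 9 tested Hox B genes were called higher and 7 of 9 tested Hox C genes lower. Over all tested genes, 20.8% were called higher and 19.5% lower.

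The members left out of the test were nearly all silent at this depth. Hoxb1, whose product helps pattern the hindbrain, and 8 of 9 Hox D genes (Hoxd1, Hoxd3, Hoxd4 and Hoxd9 to Hoxd13) had 0 counts in all 6 libraries. A count of 0 allows up to 3 counts per library, which is 0.0197 to 0.0242 CPM, and such floors cover counting error only. Hoxa13, the most 5′ gene of Hox A, had mK3 counts of 19, 3 and 16 and mK4 counts of 0, 0 and 3 and was too low to be tested. Hoxd8 was the only Hox D gene with reads. It had mK3 counts of 19, 22 and 22 and none in mK4, which makes it at least 7.21-fold lower in mK4 (adjusted p = 0.00727). Among the paralogs of group 11, named above for their part in the metanephric mesenchyme, Hoxd11 therefore had no reads in either line, and Hoxa11 and Hoxc11 are described with their clusters.

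In Hox C, the size of the difference was larger for the 5′ genes than for the 3′ ones. At the 5′ end, Hoxc13 (chr15:102921131-102928814), known for its part in hair and nail development, had mK3 counts of 1135, 1368 and 1080 and 0 in each mK4 library. Its mean level in mK3 was 8.98 ± 1.24 CPM, so it was at least 408-fold lower in mK4 (adjusted p = 1.1e-04). Hoxc10 (chr15:102966796-102971898), a gene of lumbar spinal cord and hindlimb, had mK3 counts of 435, 462 and 401 and 0 in all mK4 libraries, at least 148-fold lower (adjusted p = 2.4e-04). Both were thus read in every mK3 library and in no mK4 library. Hoxc11 followed the same pattern with mK3 counts of 147, 210 and 214 and no mK4 count, at least 65.7-fold lower (adjusted p = 9.3e-04). Hoxc12, between Hoxc11 and Hoxc13, had mK3 counts of 86, 91 and 68 and mK4 counts of 0, 6 and 0. Its log2 fold change was -5.43 (SE 1.40, adjusted p = 0.0236), and the call was lost in 7 of 12 alternative analyses, with adjusted p from 2.1e-04 to 0.0715. They included leaving out any mK3 library, or replicate 1 or 3 of mK4.

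The middle genes of Hox C fell but were still read in mK4. Hoxc9 had mK3 counts of 302, 397 and 573 and mK4 counts of 23, 69 and 31, a log2 fold change of -3.55 (SE 0.54, adjusted p = 0.00298). Hoxc8, which with Hoxc9 acts in the thoracic region, had 319, 225 and 282 counts against 49, 45 and 48, a log2 fold change of -2.66 (SE 0.29, adjusted p = 8.0e-04). Hoxc6 had 967, 1020 and 862 counts against 279, 341 and 359, a log2 fold change of -1.68 (SE 0.16, adjusted p = 5.0e-04). For these 3 genes, all mK3 libraries were above all mK4 libraries, and the log2 difference ran from -1.68 at Hoxc6 to -3.55 at Hoxc9. That gradient is a description of the estimates, since differences between genes were not tested.

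The most 3′ genes of Hox C were not called. Hoxc4 had mK3 counts of 331, 252 and 395 and mK4 counts of 333, 78 and 126, so the groups overlapped, with a log2 fold change of -0.96 (SE 0.61, adjusted p = 0.266). It was called lower in the analysis without mK4 replicate 1, where the adjusted p was 0.0252. Hoxc5 (chr15:103014008-103017429) had mK3 counts of 4463, 3767 and 3248 and mK4 counts of 0, 0 and 2353. The mK4 library of replicate 3, at 15.7 CPM, thus stood below the mK3 libraries (26.2 to 31.1 CPM), while both other mK4 libraries had no read. The log2 fold change of Hoxc5 was -2.45 with an SE of 2.09 (adjusted p = 0.408), and without mK4 replicate 3 the adjusted p was 1.8e-04. Summed over Hox C, the level was 57.7 ± 1.01 CPM in mK3 and 9.33 ± 8.78 CPM in mK4, and without Hoxc5 it was 29.2 ± 2.86 and 4.10 ± 0.79 CPM.

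**Figure D2:**
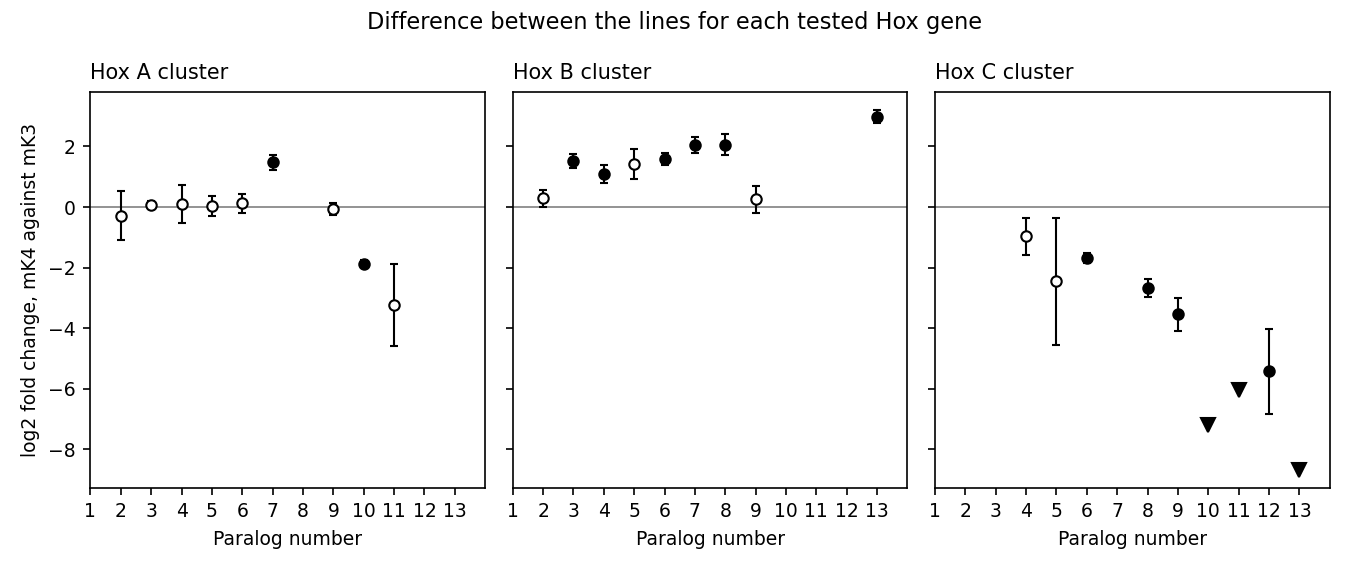
Log2 fold change of mK4 against mK3 (vertical axis) for each tested gene of Hox A, B and C by paralog number, with bars of 1 SE. Filled points passed the adjusted p threshold, open points did not, and triangles are bounds for genes at 0 in all mK4 libraries, whose difference is at least as large as drawn. Hox C estimates lie below 0, Hox B estimates lie above 0, and in Hox A the called genes are Hoxa7 and Hoxa10.

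In Hox B, 6 of 9 tested genes rose, and their log2 fold changes ran from 1.08 to 2.99. Hoxb13 (chr11:96194316-96196610), the most 5′ gene of the cluster and a marker of prostate and hindgut, changed most. It had mK3 counts of 82, 102 and 86 and mK4 counts of 686, 863 and 814, or 0.678 ± 0.101 and 5.37 ± 0.324 CPM. The log2 fold change was 2.99 (SE 0.22, adjusted p = 1.6e-04), which is 7.92-fold. No mK4 library of Hoxb13 came near the range of the mK3 libraries.

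Hoxb7 and Hoxb8, neighbours in the cluster, had log2 fold changes of 2.04 (SE 0.27, adjusted p = 0.00165) and 2.06 (SE 0.35, adjusted p = 0.00471). Hoxb7 had mK3 counts of 175, 217 and 119 and mK4 counts of 794, 826 and 673. Hoxb8, which is also known for its role in microglia and myeloid cells, had 38, 55 and 40 counts against 156, 219 and 239. In both genes the groups did not overlap. Hoxb6 (851, 534 and 503 counts in mK3, 1839, 2238 and 2097 in mK4) rose by 1.59 on the log2 scale (SE 0.19, adjusted p = 0.00122).

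Towards the 3′ end, Hoxb3, a hindbrain gene whose gene model spans Hoxb4, had mK3 counts of 470, 403 and 276 and mK4 counts of 893, 1366 and 1346. Its log2 fold change was 1.52 (SE 0.23, adjusted p = 0.0029). Hoxb4, studied for its part in blood stem cell growth, had 103, 85 and 66 counts against 179, 179 and 226, with a log2 fold change of 1.08 (SE 0.30, adjusted p = 0.03). That call was lost in 9 of 12 alternatives, with adjusted p from 0.00177 to 0.0994, and each analysis that left out 1 of the 6 libraries was among them. Hoxb5 had 41, 29 and 53 counts against 72, 113 and 181. Its groups did not overlap, but it was not called by edgeR (log2 fold change 1.41, SE 0.50, adjusted p = 0.0656), while DESeq2 called it with an adjusted p of 0.035.

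The other tested Hox B genes showed no such separation. Hoxb2 had mK3 counts of 210, 229 and 304 and mK4 counts of 344, 313 and 343, which are 1.88 ± 0.51 and 2.29 ± 0.232 CPM, and the groups overlapped in CPM (log2 fold change 0.28, SE 0.27, adjusted p = 0.465). Hoxb9, between Hoxb8 and Hoxb13, had 1566, 1028 and 680 counts against 820, 2380 and 1074, and its libraries overlapped (log2 fold change 0.25, SE 0.44, adjusted p = 0.691). The summed level of Hox B was 20.7 ± 3.76 CPM in mK3 and 48.3 ± 6.88 CPM in mK4.

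In Hox A, Hoxa10 (chr6:52231197-52240854), a regulator of uterine and hindlimb development, was the only Hox A gene called lower. It had mK3 counts of 10049, 9656 and 9978 and mK4 counts of 2751, 3430 and 2699, or 74.4 ± 5.36 and 20.2 ± 2.28 CPM. The log2 fold change was -1.88 (SE 0.11, adjusted p = 8.6e-05), a level 3.68-fold lower in mK4. All mK3 libraries were well above all mK4 libraries.

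Hoxa11 (chr6:52242105-52245810), the Hox A gene of the paralog group required in the metanephric mesenchyme, varied widely between replicates of both lines. It had mK3 counts of 7641, 59478 and 6447 and mK4 counts of 634, 799 and 7374. Replicate 2 of mK3 stood far above the other mK3 libraries, and replicate 3 of mK4 stood beside the lower mK3 libraries and far above the other mK4 libraries. In CPM all mK3 libraries (51.9 to 449.4) were above all mK4 libraries (4.64 to 49.1), but the log2 fold change of -3.23 had an SE of 1.36 (adjusted p = 0.111). Without mK4 replicate 3 it was -5.22 (adjusted p = 0.0384), and without mK3 replicate 2 it was -1.41 (adjusted p = 0.40). Replicate 3 of mK4 was also the library with reads of Hoxc5. Counts over 500 that exceeded 7 times the line's median occurred in 51 (0.425%) of the 12012 mK3 genes and 74 (0.587%) of the 12599 mK4 genes defined above.

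Hoxa11os, the antisense transcript that overlaps Hoxa11, showed no jump, and had mK3 counts of 6689, 4798 and 5326 and mK4 counts of 2416, 2627 and 2686, and fell by 1.25 on the log2 scale (SE 0.12, adjusted p = 4.0e-04). The labels describe strand-specific libraries, but the sources used here do not give whether the counting used the strand, so reads of Hoxa11 and Hoxa11os may have been divided between them in a way that cannot be told.

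Hoxa7 was the Hox A gene that rose, and it had mK3 counts of 221, 199 and 188 and mK4 counts of 752, 500 and 583, with a log2 fold change of 1.48 (SE 0.25, adjusted p = 0.00492). The libraries of the lines did not overlap. Its paralog Hoxb7 rose as well, and the summed level of paralog group 7 was 2.79 ± 0.337 CPM (mK3) and 9.47 ± 1.62 CPM (mK4).

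The remaining tested Hox A genes had overlapping libraries and were not called, with log2 fold changes from -0.28 to 0.12. Hoxa3, which acts in the pharyngeal arches and thymus, had 1658, 1323 and 1346 counts against 1466, 1607 and 1893 (log2 fold change 0.07, SE 0.13). Hoxa9, known from leukaemia and blood progenitors, had 648, 602 and 628 counts against 475, 759 and 743 (log2 fold change -0.07, SE 0.20). Hoxa5, which acts in the lung and the cervical skeleton, had 140, 188 and 151 counts against 119, 200 and 223 (log2 fold change 0.02, SE 0.33). Hoxa6 had 265, 221 and 231 counts against 214, 413 and 232. Hoxa2 had 9 to 67 counts in mK3 and 15 to 45 in mK4, and Hoxa4 had 22 to 72 and 42 to 69. The log2 fold change of Hoxa2 was -0.28 with an SE of 0.82, the widest error among these 6 genes. Without Hoxa11, the summed level of Hox A was 95.1 ± 5.67 CPM in mK3 and 44.0 ± 1.54 CPM in mK4. Of this sum, Hoxa10 alone gave 74.4 CPM in mK3 and 20.2 CPM in mK4.

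Arranged by paralog number, called copies went opposite ways only in groups 6, 8 and 13. In each of these, a Hox B gene rose and a Hox C gene fell. In group 13, Hoxb13 rose 7.92-fold while Hoxc13 fell to 0 counts, and the summed level was 9.75 ± 1.28 CPM in mK3 and 5.38 ± 0.326 CPM in mK4. For group 8, Hoxb8 rose, Hoxc8 fell and Hoxd8 fell. In group 6, Hoxb6 rose, Hoxc6 fell and Hoxa6 was not called, and the group's sum was 13.6 ± 0.836 CPM in mK3 and 18.2 ± 1.31 CPM in mK4. In group 10, Hoxa10 and Hoxc10 both fell, and the sum was 77.7 ± 5.41 against 20.2 ± 2.28 CPM. In group 12, Hoxc12 was the only copy with reads. The gene models of Hoxa3, Hoxb3 and Hoxd3 span other members, and those of Hoxd10 and Hoxd11 overlap. Those of Hoxb5 and Hoxb6 overlap the transcript Hoxb5os, and those of Hoxb2 and Hoxb3 overlap Hoxb3os. Reads in the shared stretches could have been assigned to either gene or left uncounted. This holds also for Hoxd3, Hoxd4, Hoxd10 and Hoxd11, which had 0 counts.

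Mature miRNAs from the clusters were measured in the same table and tested on their own over 461 miRNAs. The sequences that the following results turn on are given 5′ to 3′ from RefSeq (GRCm38.p6), with the seed, bases 2 to 8, in capitals. All 11 mature names that were looked up matched an entry. The first pair, from Mir10a in Hox B (chr11:96317186-96317208) and Mir10b in Hox D (chr2:74726074-74726096), share a seed and differ by U12A, where positions count from 1 at the 5′ end and the base of miR-10a-5p comes before the number.
miR-10a-5p: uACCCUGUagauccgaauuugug
miR-10b-5p: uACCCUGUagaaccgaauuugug
The next pair share another seed and differ by A12C, with the base of miR-196a-5p before the number. Mir196b lies in Hox A (chr6:52230129-52230150), while miR-196a-5p is made with the same letters by Mir196a-1 in Hox B (chr11:96265187-96265208) and by Mir196a-2 in Hox C (chr15:102973365-102973386).
miR-196a-5p: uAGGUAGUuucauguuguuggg
miR-196b-5p: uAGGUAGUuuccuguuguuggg
The 3′ arms of these loci tell Mir196a-1 from Mir196a-2, as they differ at 17 of 22 positions.
miR-196a-1-3p: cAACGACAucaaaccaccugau
miR-196a-2-3p: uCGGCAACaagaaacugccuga
The gene of miR-615 lies inside Hoxc5 (chr15:103014969-103014990 for the 3p arm).
miR-615-3p: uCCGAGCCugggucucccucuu

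Of the 9 tested Hox miRNAs, 4 rose and 4 fell, where 32.5% of all tested miRNAs were called higher and 35.1% lower. miR-196a-1-3p, from Hox B, had mK3 counts of 2, 0 and 1 and mK4 counts of 3734, 7464 and 6923. The ratio of its levels was 4870, with a 95% counting interval of 1666 to 23616 (adjusted p = 3.2e-14). miR-196a-2-3p, from Hox C, went the other way, with mK3 counts of 82, 93 and 85 and mK4 counts of 8, 16 and 10 (log2 fold change -3.23, SE 0.28, adjusted p = 7.9e-08). In the 3p arms, then, the Hox B locus was read almost only in mK4 and the Hox C locus mainly in mK3. miR-196a-5p, which both loci make, had mK3 counts of 1138, 1157 and 980 and mK4 counts of 394, 696 and 630 and fell by 1.23 on the log2 scale (SE 0.13, adjusted p = 4.3e-07). Its direction was thus that of the Hox C arm, but in mK4 miR-196a-5p stood at 102 CPM, below the 1053 CPM of miR-196a-1-3p. Why these arms differ was not tested, and the reads of miR-196a-5p cannot be divided between the loci.

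miR-10a-5p, whose gene lies inside the Hoxb3 gene model 1059 bases before Hoxb4, rose, as did Hoxb3 and Hoxb4. Its libraries had mK3 counts of 103555, 108906 and 93086 and mK4 counts of 284644, 707390 and 629375, or 22267 ± 1978 and 92323 ± 14880 CPM among miRNAs. The log2 fold change was 2.05 (SE 0.15, adjusted p = 1.2e-08), beside 1.52 for Hoxb3 and 1.08 for Hoxb4. The 3p arm miR-10a-3p rose by 2.08 (SE 0.13) with 329 to 399 counts in mK3 and 1261 to 2312 in mK4. miR-10b-5p, from Hox D, inside the models of Hoxd3 and Hoxd4, which had no reads, had 73, 82 and 91 counts against 91, 202 and 144 and was called higher (log2 fold change 0.51, SE 0.20, adjusted p = 0.0342). That call was lost in 5 of 9 alternatives, with adjusted p up to 0.138, among them leaving out replicate 1 or 2 of mK3 or replicate 2 of mK4. The sequences above show that miR-10b-5p differs from the far more abundant miR-10a-5p at a single base, and whether reads crossed between them was not tested.

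Both arms of miR-615 fell. The 3p arm had mK3 counts of 26042, 52620 and 38534 and mK4 counts of 9471, 15594 and 15802 (log2 fold change -1.81, SE 0.19, adjusted p = 3.5e-06), and the 5p arm had a log2 fold change of -1.32 (SE 0.22, adjusted p = 7.9e-05). The lines did not overlap in CPM for either arm. All 3 mK4 libraries held reads of both arms, also replicates 1 and 2, in which the host gene Hoxc5 was at 0. miR-196b-5p, from Hox A, was not called (log2 fold change 0.21, SE 0.12, adjusted p = 0.119), with 189 to 204 CPM in mK3 and 222 to 245 CPM in mK4, ranges that do not overlap. miR-10b-3p and miR-196b-3p had at most 6 counts in a library and were not tested. The sources used here do not give how miRNA reads were counted, and the labels describe no small-RNA library.

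**Figure D3:**
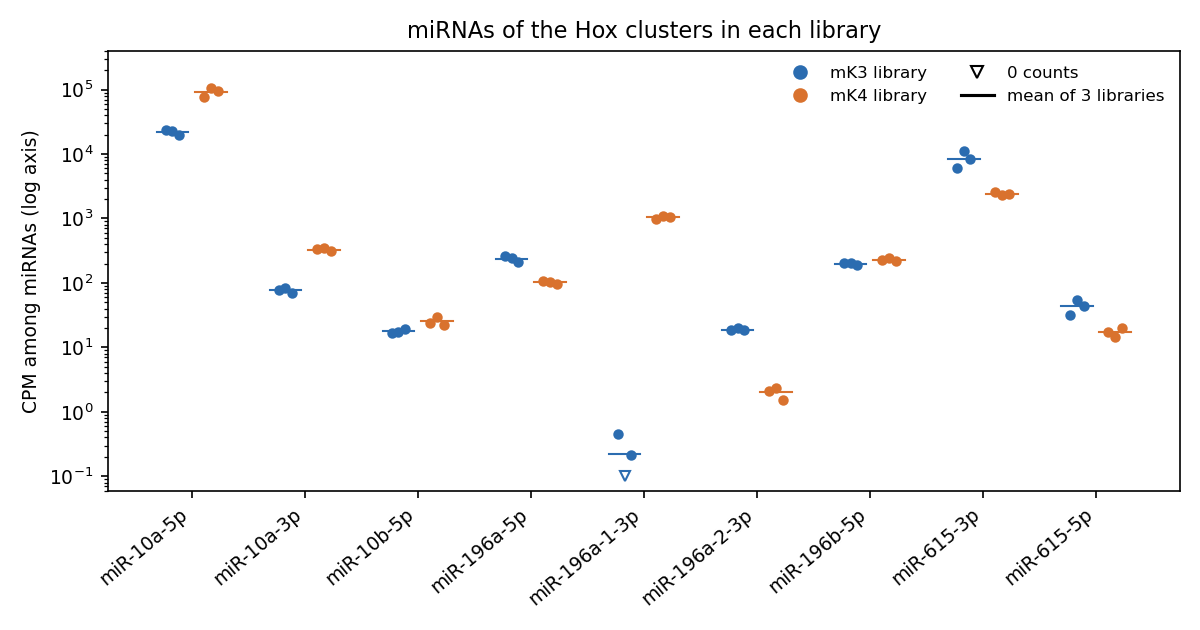
CPM among miRNAs of each tested Hox cluster miRNA in each library, on a log axis. Points are libraries, short lines are means of 3 libraries, and the open triangle is a library with 0 counts. miR-196a-1-3p rises from at most 2 counts per mK3 library to at least 3734 per mK4 library, while miR-196a-2-3p, both arms of miR-615 and miR-196a-5p are lower in mK4.

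Among long non-coding genes and genes flanking the clusters, 4 were called higher and 2 lower of 16 tested, near the shares over all tested genes (20.8% higher and 19.5% lower). Of 10 listed non-coding genes, 7 were tested, Hoxa11os fell and Hoxb5os rose (99, 95 and 95 counts in mK3, 275, 216 and 278 in mK4, log2 fold change 1.28, SE 0.28, adjusted p = 0.0117). Hotair, the Hox C transcript studied as a partner of polycomb complexes, had 69, 63 and 36 counts against 30, 8 and 0 and was not called (adjusted p = 0.252). Of 11 flanking genes, 9 were tested, 3 rose and 1 fell. Skap2 and Hibadh, which flank Hox A, rose by 0.45 (SE 0.07, adjusted p = 0.00369) and 0.85 (SE 0.19, adjusted p = 0.0143), and Cbx5, a heterochromatin gene beside Hox C, fell by 0.44 on the log2 scale (SE 0.05, adjusted p = 0.00112). The call of Hibadh was lost without mK3 replicate 2 (adjusted p = 0.0528), and that of Calcoco1, the other gene that rose, in 5 of 13 alternatives, among them leaving out replicate 2 or 3 of either line. The log2 changes of the called flanking genes were smaller than those of every called Hox gene.

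HOX proteins bind DNA together with the TALE homeodomain cofactors of the PBX, MEIS and PKNOX families. Of 9 such genes, 7 were called, 3 higher and 4 lower, against 20.8% higher and 19.5% lower over all tested genes. Their median log2 fold change was 0.32. Meis1 fell by 1.98 on the log2 scale (SE 0.13, adjusted p = 9.6e-05), from 7328 to 10425 counts in mK3 to 2389 to 2635 in mK4. Pbx3 went the other way, with 7332 to 7949 counts in mK3 and 19077 to 21621 in mK4 (log2 fold change 1.27, SE 0.12, adjusted p = 4.7e-04). Meis3 rose by 1.38 (SE 0.21, adjusted p = 0.00298). Meis2 had 15862 to 20732 counts in mK3 and 6520 to 8426 in mK4 (log2 fold change -1.45, SE 0.09, adjusted p = 9.7e-05). Within the MEIS family, therefore, Meis1 and Meis2 fell and Meis3 rose.

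Polycomb and trithorax genes, whose products maintain silent and active Hox genes, gave 6 higher and 7 lower calls among 33 tested, with a median log2 fold change of -0.09. These shares are near the 20.8% higher and 19.5% lower over all tested genes, so the genes named next are single results and not a change of the list. Ezh1, a histone H3 lysine methyltransferase of polycomb complex PRC2, had 1779 to 1817 counts in mK3 and 4964 to 6214 in mK4 (log2 fold change 1.52, SE 0.10, adjusted p = 1.3e-04), while Ezh2, its alternative, was not called (0.32, SE 0.12, adjusted p = 0.0735). Cbx7, a reader subunit of PRC1, rose by 1.73 (SE 0.21, adjusted p = 0.00125). Phf19, a PRC2 accessory subunit, fell by 1.83 on the log2 scale (SE 0.20, adjusted p = 7.7e-04), and Psip1, which tethers the MLL and menin complex, fell by 1.26 (SE 0.14, adjusted p = 7.4e-04). The count of 13 calls fell to 8 without mK3 replicate 1.

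ATAC-seq peaks at the members were few. A gene was counted when a peak lay within 1 kb of its start, or of either end where the reference gave no strand. This held for 6 of 38 members in mK3 (15.8%) and 11 in mK4 (28.9%), against 40.7% and 44.9% of the 21887 protein-coding genes. With 1 library per line there is no test, and the lists, which hold 22516 and 34756 peaks, are of unequal length. Peaks were present in both lines at Hoxa10, Hoxa11, Hoxb9, Hoxc6, Hoxc10 and Hoxc13. They were present in mK4 only at Hoxa3, Hoxa6, Hoxb6, Hoxb7 and Hoxb13, and at 27 members in neither line. No member had a peak in mK3 only.

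Set beside the RNA, 3 of the 7 genes that rose (Hoxb6, Hoxb7 and Hoxb13) had a peak in mK4 only and the other 4 had none. Of the 9 genes that fell, Hoxa10, Hoxc6, Hoxc10 and Hoxc13 had a peak in both lines and 5 had none. The 10 untested members had no peak in either line. The Hoxb13 peak in mK4 (chr11:96194144-96194343) had its summit 41 bases below the lower end of the gene model. The reference gives no strand for Hoxb13, and the Hox B members with a known start (Hoxb1, Hoxb4 and Hoxb8) lie on the plus strand. The peak had a fold enrichment of 3.63 and a -log10 q of 4.62, both the authors' values. The mK4 peaks at Hoxb7 and Hoxb6 had -log10 q of 5.71 and 8.52. All 3 lay below the median of the mK4 list, which was 11.

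Hoxc13 and Hoxc10 had a peak in mK4 too, the line in which neither had a read. Near Hoxc13, the mK3 peak (chr15:102920646-102921088) had a fold enrichment of 7.49 and a -log10 q of 44.8, rank 977 of 22477. The overlapping mK4 peak (chr15:102920725-102920924) had 3.61 and 5.25, rank 28144 of 34710. At Hoxc10 the mK3 peak had a fold enrichment of 3.28 and a -log10 q of 7.68, and the mK4 peak had 4.91 and 11.1. Fold enrichments are relative to each library's own background, so they rank peaks within a list and do not measure a change between the lines.

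**Figure D4:**
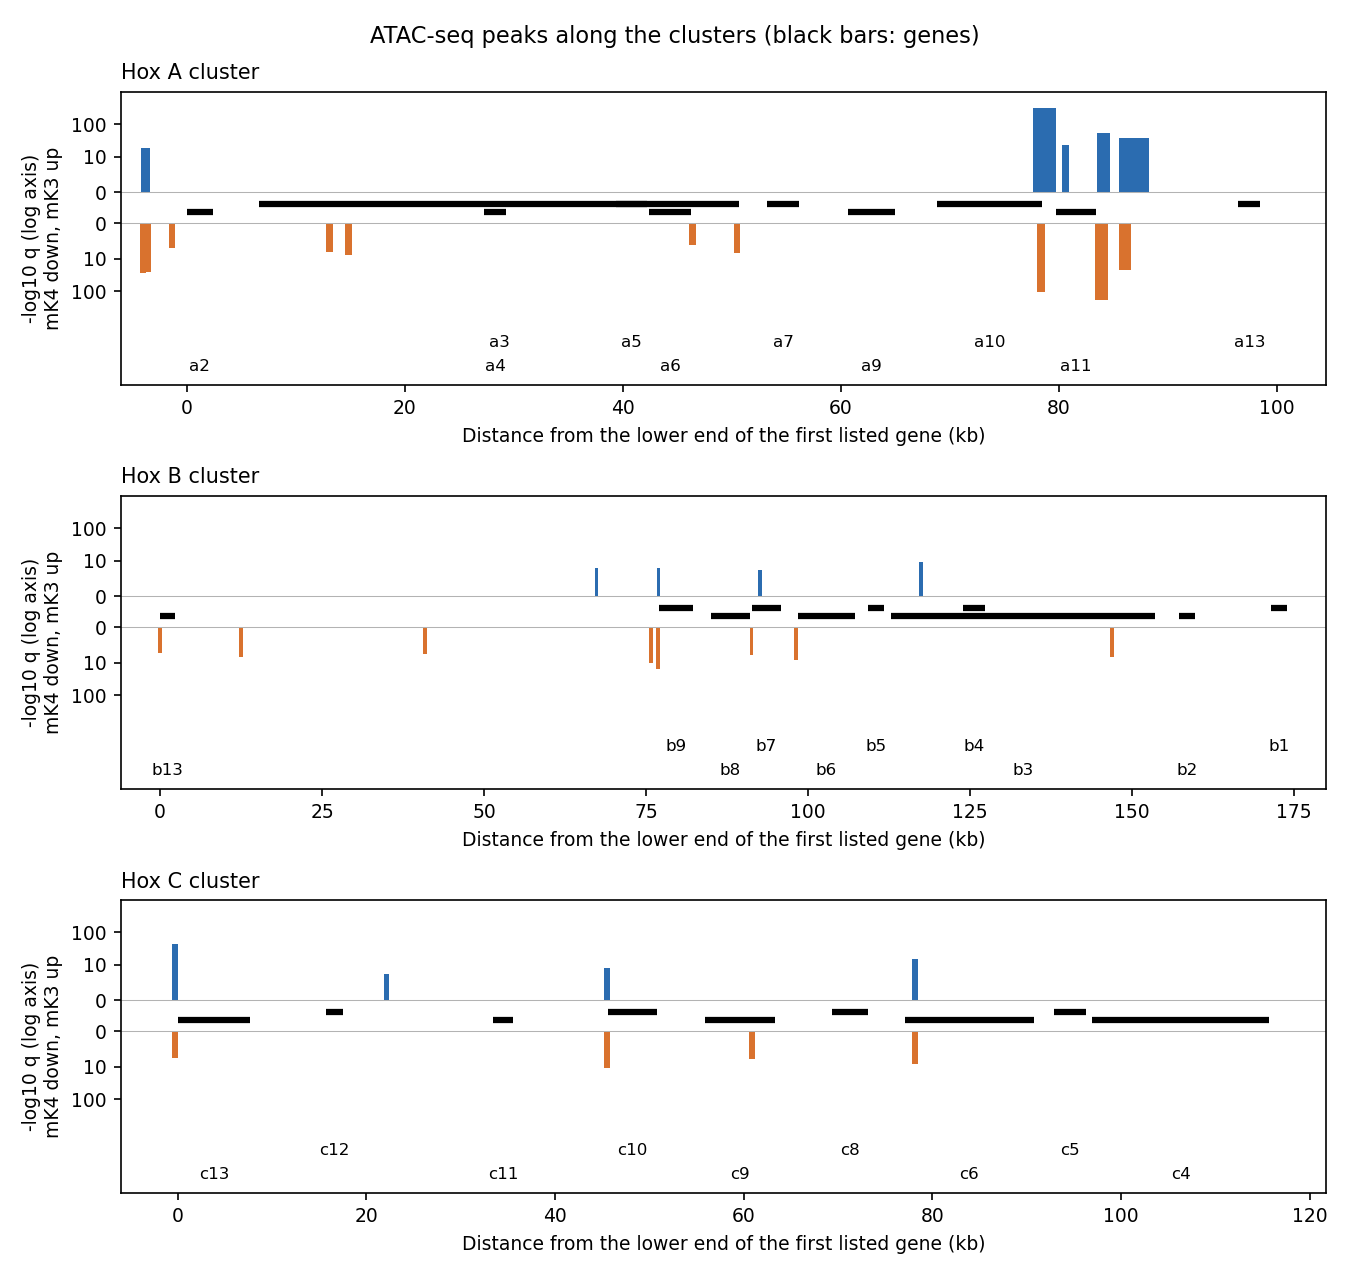
ATAC-seq peaks of mK3 (blue, upward) and mK4 (orange, downward) along Hox A, B and C, with the height giving the authors' -log10 q on a log axis and the horizontal axis the distance in kb from the lower end of the first listed gene. Black bars are gene models, named below, and peaks narrower than 0.6 kb are drawn 0.6 kb wide. The tallest bars of both lines stand at Hoxa10 and Hoxa11.

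Within windows that reached 5 kb beyond the outer members, mK3 had 13 peaks and mK4 23, and 8 of 13 mK3 peaks (9 of 23 mK4 peaks) overlapped one of the other line by at least 1 base. Hox A held 5 and 10 peaks, Hox B 4 and 8, Hox C 4 and 4, and Hox D 0 and 1. In Hox B, only the peak beside Hoxb9 was shared. Although Hox A had fewer peaks in mK3, these covered 7473 bases against 4954 in mK4. The only Hox D peak lay 1820 bases from the start of Hoxd12, in mK4.

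The stretch from Hoxa10 to beyond Hoxa11 stood apart within both peak lists. The reference gives 2 starts for Hoxa10. In mK3, the peak at the more upstream one (chr6:52240051-52242169) had a -log10 q of 302.7, rank 15 of 22477, at a fold enrichment of 5.43. At 2119 bases it was the fifth widest of the list. The 5539 mK3 peaks with fold enrichments of 4.5 to 6 had a median -log10 q of 14.8. The next peaks, at the Hoxa11 start (chr6:52245861-52247074) and beyond it (chr6:52247890-52250618), had fold enrichments of 2.22 and 2.20 with -log10 q of 53.4 and 39.5. Among 151 mK3 peaks with fold enrichments of 1.5 to 2.5, the median -log10 q was 2.58. In mK4 the peak at the Hoxa11 start (chr6:52245751-52246914) had a -log10 q of 175.5, rank 47 of 34710, at a fold enrichment of 4.82, and the Hoxa10 peak (chr6:52240413-52241131) had 105.3 at 5.68. The 8833 mK4 peaks with fold enrichments of 4.5 to 6 had a median -log10 q of 12.7. In both lines these peaks thus had a far smaller q than peaks of like enrichment. The reads behind the peaks were not analysed here. As background, kidney lines of these names have been described as derived from mice that carry an SV40 large T transgene under Hoxa11 regulatory sequence. The labels give the genotype as wild type and name no transgene, and its part in these peaks and in the Hoxa11 counts was not tested.

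**Figure D5:**
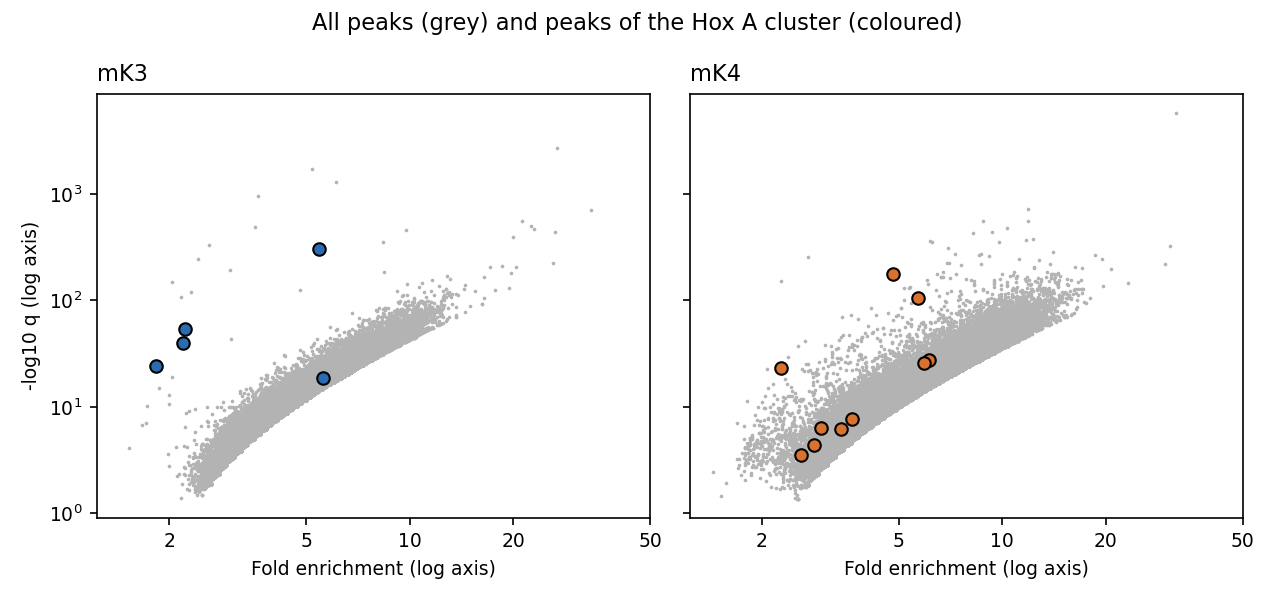
Fold enrichment (horizontal, log axis) and -log10 q (vertical, log axis) of every peak in the mK3 and mK4 lists (grey), with peaks of the Hox A cluster coloured. The peaks from Hoxa10 to beyond Hoxa11, 4 in mK3 and 3 in mK4, lie above the main band, and the other Hox A peaks lie within it.

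The 250 bases before these starts are shown because they are the only promoter stretches of the members that carry a peak in both lines, among 24 stretches from RefSeq (GRCm38.p6) that matched 22 members. The sequences are on the minus strand, 5′ to 3′, at chr6:52240855-52241104 and chr6:52245811-52246060, and capitals mark the bases inside the mK3 peak. The mK4 peaks cover both stretches in full, and the mK3 peak covers 200 of the 250 bases before Hoxa11.
Hoxa10: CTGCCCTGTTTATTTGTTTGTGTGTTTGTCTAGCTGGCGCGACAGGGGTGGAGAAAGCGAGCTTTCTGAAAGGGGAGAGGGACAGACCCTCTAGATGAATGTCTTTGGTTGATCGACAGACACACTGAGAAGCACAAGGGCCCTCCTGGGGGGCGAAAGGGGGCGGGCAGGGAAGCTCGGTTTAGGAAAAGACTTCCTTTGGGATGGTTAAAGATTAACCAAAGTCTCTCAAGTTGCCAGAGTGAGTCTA
Hoxa11: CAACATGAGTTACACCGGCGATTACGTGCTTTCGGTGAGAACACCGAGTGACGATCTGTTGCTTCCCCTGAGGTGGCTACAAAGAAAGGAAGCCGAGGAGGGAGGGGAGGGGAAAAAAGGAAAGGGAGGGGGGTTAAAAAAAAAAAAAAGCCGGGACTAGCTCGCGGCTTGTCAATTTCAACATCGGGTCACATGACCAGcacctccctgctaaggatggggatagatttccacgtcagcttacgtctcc
Neither stretch holds TGACAG, the core bound by MEIS proteins, or CCAAT, the box bound by NF-Y, on either strand. The stretch at the other Hoxa10 start (chr6:52234890-52235189) lay outside the peaks of both lines and held 1 CCAAT. Among the 24 member promoters, taken as 300 bases around the start, 2 held TGACAG and 15 held CCAAT (62.5%), against 19.2% and 37.4% of 32851 promoters. A match is a description of letters, not of a bound site.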

How the data were processed

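RNA-seq values were the deposited whole-number counts per feature, not normalized. Per the submitters' processing notes, the tools included STAR 2.7.10a, HTSeq 2.0.2, Bowtie2 and MACS3 on mm10. The sources used here do not give the role or settings of each tool. Peak lists were deposited for 1 library of each line, with the fold enrichment (a ratio) and -log10 q that the authors' caller assigned. The members, gene lists and tests were chosen with earlier results of these data known.

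Genes and miRNAs were fitted separately with edgeR 4.0.16 in R 4.3.3: filterByExpr (minimum count 10), TMM scaling, robust quasi-likelihood fit and test of mK4 against mK3 on the 3 libraries per line, and Benjamini-Hochberg adjustment. The fit was tested on simulated data. CPM were scaled within each class. Genes at 0 in a whole line were bounded with 3 counts per library. Named genes were all members, the tested miRNAs and, of the other lists, up to 2 per direction with the smallest adjusted p. A gene that this rule would name is not reported here. Hotair, Ezh2, Calcoco1, Meis2 and the marker genes were named after their values were seen. Alternatives were DESeq2 1.42.0, scaling, filters, protein-coding features only, a replicate block, and leaving out each library. Peaks of the assembled chromosomes were set against RefSeq gene positions (GRCm38.p6, which is mm10) in Python 3.11.15. A start position was known for 17492 of 21887 genes, and both gene ends were used for the rest. Exon lengths were not used, so CPM are not corrected for gene length. Sums over genes, and the part of a gene in such a sum, share this limit.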

Additional observations from a re-analysis of the deposited data

How the results depend on the processing

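No result changed direction while passing the threshold, and 13 of 16 Hox calls held in every alternative that tested the gene (8 of these 13 were not tested under the filter of 1 CPM), the exceptions being Hoxb4, Hoxc12 and Hoxd8. Of the 12 tested genes not called, Hoxa11, Hoxb5, Hoxc4 and Hoxc5 were called in 1 alternative each. With the filter of 1 CPM in all libraries, which left 11 members to test, 3 rose and 2 fell, with 2 rising in Hox B, 1 falling in Hox C and 0 called in Hox D. Leaving out 1 library at a time gave 6 rising and 8 to 10 falling members, 1 to 2 falling in Hox A, and 8 to 13 chromatin regulators called. Without TMM scaling, the log2 fold changes of all genes shifted by 0.11 and the counts stayed at 7 and 9. DESeq2 gave 8 and 9. Of the Hox miRNAs, 3 to 5 rose and 4 fell over the alternatives run. Using both ends of every gene, chosen after seeing the data, gave 6 members with a start peak in mK3 and 12 in mK4. Requiring an overlap of 50% of each peak left 4 shared peaks in each line. Same-numbered libraries did not deviate together (correlations -0.02, 0.02 and 0.01), so the numbers do not pair them. With a replicate block, 6 members rose and 7 fell, and 0 Hox D genes were called, since Hoxd8 had an adjusted p of 0.106. Hoxb5os lost its call there as well (adjusted p = 0.0531). The depth limits statements on genes with few counts, and the peak lists have 1 library per line and no replicate check.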
